A study of Mus musculus with 9 samples.

Results

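Chromatin acetylated at histone H3 lysine 27 (H3K27ac), a mark of active promoters and enhancers, was compared with binding of the transcription factor SOX6 in mouse oligodendrocytes (OLs) and in the oligodendrocyte progenitor cells (OPCs) they came from. The regions described here carried H3K27ac in OLs and not in OPCs, yet were already bound by SOX6 in OPCs. They were chosen by merging the 4 H3K27ac peak lists on chromosomes 1 to 19 and keeping each merged region that met a peak of both OL lists and of neither OPC list. It also had to overlap, by at least 1 bp, a SOX6 peak of at least 1 of the 2 OPC SOX6 lists. The rule found 1302 prebound regions, which were 2.68% of 48551 merged regions and 15.8% of the 8216 OL-only regions. The remaining 6914 OL-only regions had no OPC SOX6 peak. Presence and absence of H3K27ac in either state and of SOX6 in OPCs therefore chose the regions and are not findings about them.

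OLs were O1-positive cells harvested with a magnetic cell sorter. OPCs had been made from 2 lines of epiblast stem cells, 129O1 and EpiSC5, that come from the mouse strains 129S1/SvImJ and 129SvEv. They were sorted on CD140a and NG2 after 4 passages. All cells had been grown without SHH, and the OPC medium held bFGF and PDGFA at 20 ng/mL each. The 2 lines were the 2 replicates, with 1 list per line for H3K27ac in OLs, H3K27ac in OPCs and SOX6 in OPCs. SOX6 in OLs was mapped in EpiSC5 alone. The OLs are an intermediate stage made in culture. An H3K27ac peak that is absent from a bulk list may reflect fewer cells that carry it or less of it per cell, and the lists cannot tell these apart.

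SOX6 belongs to the SoxD group of high-mobility-group proteins, which bind DNA but lack an activation domain of their own and act with partner factors. In the oligodendrocyte lineage SOX5 and SOX6 are known to restrain premature differentiation of OPCs, in part by counteracting SOX9 and SOX10. Enhancers can be bound by a factor before they gain H3K27ac, and such sites are commonly called prebound or poised.

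The sequences shown first are those that fall inside prebound regions and belong to genes of OL differentiation. The mature microRNAs of the Mir219 genes lay in the second widest prebound region, chr2:29840086-29859161 (mm10). It spans 19076 bp over Urm1, Cercam, Mir219a-2 and Mir219b. miR-219 is known to promote OL differentiation by repressing transcripts of progenitor factors that include Sox6. The RefSeq sequences run 5′ to 3′, and capitals mark the seed, bases 2 to 8:
mmu-miR-219a-5p: uGAUUGUCcaaacgcaauucu
mmu-miR-219b-5p: aGAUGUCCagccacaauucucg
mmu-miR-219b-3p: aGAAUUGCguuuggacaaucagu
No 2 of these 3 shared a seed, and miR-219b-3p is read from the strand opposite to miR-219a-5p over the same bases. The region had an OPC SOX6 peak in 129O1 alone, of 3.77-fold enrichment over background in the authors' list. Its summit lay 11.1 kb from miR-219a-5p (chr2:29845689-29845709, minus strand), so the binding was in the same acetylated domain and not over the microRNA. OL H3K27ac covered all 19076 bp in 129O1 and 17025 bp in EpiSC5. Other prebound regions held Mir1897, Mir7658 and Mir7239.

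Few prebound regions lay over promoters, and 4 that did are shown because an OPC SOX6 peak and OL-only H3K27ac met at the start of a gene. They were picked with their values known, Mobp, Hapln2 and Gpr62 as genes of oligodendrocytes and Prr5l as a window with both SOX letter runs. A region was counted as over a promoter when it touched the RefSeq window of 250 bases before to 50 after a gene's start. Among the 1258 prebound regions on chromosomes with promoters in the table, 37 (2.94%) were over one, against 140 of 6685 OL-only regions without OPC SOX6 (2.09%). In regions acetylated in all 4 lists and bound by SOX6 in OPCs the share was 38.8%. The 250 bases before the start are printed 5′ to 3′ on the gene's strand (RefSeq, GRCm38.p6, the assembly that mm10 names). Capitals mark the SOX letters ACAAT and ACAAAG on either strand, which read ATTGT and CTTTGT on the other:
Mobp: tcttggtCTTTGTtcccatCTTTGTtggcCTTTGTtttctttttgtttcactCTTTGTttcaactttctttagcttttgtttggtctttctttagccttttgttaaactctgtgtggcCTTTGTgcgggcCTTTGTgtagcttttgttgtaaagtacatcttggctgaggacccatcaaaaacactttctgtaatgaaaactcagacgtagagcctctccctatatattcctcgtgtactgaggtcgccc
Hapln2: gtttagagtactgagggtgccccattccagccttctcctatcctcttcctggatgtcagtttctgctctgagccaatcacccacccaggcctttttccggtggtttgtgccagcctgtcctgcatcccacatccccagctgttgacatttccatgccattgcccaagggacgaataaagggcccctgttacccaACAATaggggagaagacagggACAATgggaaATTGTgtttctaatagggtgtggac
Prr5l: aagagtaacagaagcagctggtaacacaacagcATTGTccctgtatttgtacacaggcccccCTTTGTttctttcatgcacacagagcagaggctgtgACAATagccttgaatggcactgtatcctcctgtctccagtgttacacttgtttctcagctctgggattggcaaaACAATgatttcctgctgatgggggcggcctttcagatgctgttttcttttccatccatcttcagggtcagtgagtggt
Gpr62: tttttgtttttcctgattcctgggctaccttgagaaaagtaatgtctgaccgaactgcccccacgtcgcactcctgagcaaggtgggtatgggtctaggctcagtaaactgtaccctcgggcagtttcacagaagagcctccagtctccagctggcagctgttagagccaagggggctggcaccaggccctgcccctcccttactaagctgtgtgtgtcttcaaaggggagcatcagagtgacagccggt
Mobp encodes a basic protein of compact myelin. Its window (chr9:120149492-120149741, plus strand) held 6 matches to ACAAAG, and a 129O1 SOX6 summit of 4.69-fold lay 191 bp from the start. Hapln2, a link protein of the matrix at nodes of Ranvier (chr3:88027512-88027761, minus strand), held 3 matches to ACAAT, with a 129O1 summit of 3.88-fold 38 bp from the start. Prr5l, which associates with the rapamycin-insensitive mTOR complex (chr2:101883028-101883277, minus strand), held 3 matches to ACAAT and 1 to ACAAAG and was bound in both lines. Gpr62, a G protein-coupled receptor of oligodendrocytes (chr9:106465986-106466235, minus strand), held 0 matches to either, although a 129O1 summit of 6.27-fold lay 36 bp from its start.

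Among the 18 windows of 16 genes that lay under both a prebound region and an OPC SOX6 peak, 12 (66.7%) held ACAAT or ACAAAG. The share was 63.4% of the 41 windows under any prebound region, 40.9% of 149 windows under other OL-only regions and 38.2% of all 31396 windows. ACAAT alone was in 38.9% of the 18 and 27.1% of all windows, and ACAAAG alone in 38.9% and 16.3%. Letter runs of other factors gave both orders. CAGCTG was in 33.3% of the 18 and 13.0% of all windows, and CANNTG, with N any base, in 83.3% and 66.1%. CATATG was in 0% and 3.27%, and TGANTCA in 0% and 6.8%. The longer SOX run AACAAT was in 22.2% of the 18 and 9.26% of all windows, and ACAATGG in 16.7% and 2.965%. Higher shares in the 18 were thus seen for SOX letters and for CAGCTG and CANNTG alike. With 18 windows the runs cannot be ranked against each other. Median GC content was 52.2% in the 18 windows, 47.6% in the 41, 52.4% in the 149 and 52.4% in all. Some of the 18 windows overlap each other or belong to 1 gene, and a match is a run of letters, not a shown site.

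The OL-only regions had a lower share bound by SOX6 in OPCs than the regions that OPCs acetylate. The share with an OPC SOX6 peak was 15.8% of OL-only regions, against 43.5% of 5291 OPC-only regions, 59.3% of 14591 regions in all 4 H3K27ac lists and 34.8% of every merged region. Both lines gave this order, with 14.8% of OL-only and 40.1% of OPC-only regions bound in 129O1, and 8.84% of OL-only and 32.1% of OPC-only regions bound in EpiSC5. The share climbed with region width in each class. For OL-only regions it was 12.2% under 1 kb, 16.3% from 1 to 2 kb, 17.4% from 2 to 4 kb and 23.7% at 4 kb and over. The OPC-only shares in the same bands were 29.2%, 50.2%, 64.3% and 82.4%, so the classes stood apart at each width. Each line gives 1 share per class from the same SOX6 list, so these shares describe 2 lines and carry no p-value. A comparison of OL with OPC H3K27ac lists, 2 against 2, could not go below p = 0.333 in an exact permutation test.

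**Figure D1:**
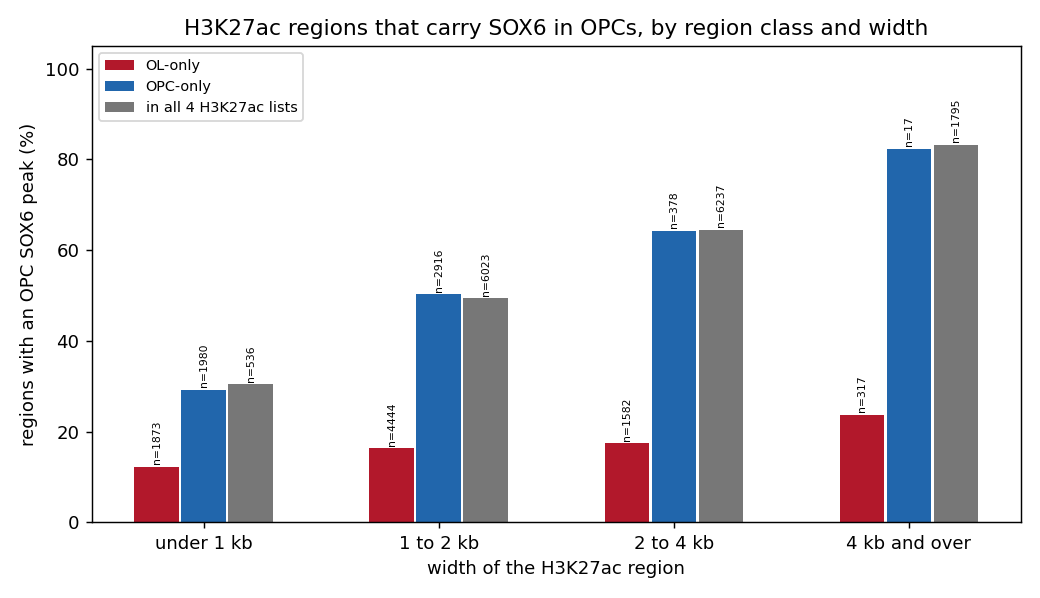
Percent of merged H3K27ac regions (vertical axis) that overlap an OPC SOX6 peak of either line, in 4 bands of region width (horizontal axis), for OL-only regions, OPC-only regions and regions in all 4 H3K27ac lists. Bars are shares of the n regions printed above them. OL-only regions climb to 23.7% at 4 kb and over, where the OPC-only regions reach 82.4% with n = 17.

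Seen from the SOX6 side, prebound regions held a modest part of OPC binding. Of the SOX6 peaks on chromosomes 1 to 19, 1239 of 22320 in 129O1 (5.55%) and 736 of 15166 in EpiSC5 (4.85%) lay in a prebound region. OPC SOX6 peaks that met no OPC H3K27ac peak numbered 6257 in 129O1 and 3761 in EpiSC5, and prebound regions held 19.8% and 19.6% of these. Peaks in prebound regions were of ordinary height, with a median fold of 5.20 in 129O1 and 5.03 in EpiSC5, against 5.14 and 5.01 over all peaks of the same lists. A single SOX6 peak was the rule: 1186 of 1212 bound regions had 1 peak in 129O1 and 716 of 726 had 1 in EpiSC5.

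The lines shared 636 prebound regions with SOX6 in both. Another 576 had it in 129O1 alone, the longer list, and 90 in EpiSC5 alone. Regions bound in both lines had a higher median 129O1 fold (6.25) than those bound in 129O1 alone (4.56). Chromosome 17 held 6.82% of 129O1 OPC SOX6 peaks and 3.77% of EpiSC5 ones. It held 49 of the 576 regions bound in 129O1 alone (8.51%), 0 of the 90 bound in EpiSC5 alone and 26 of the 636 bound in both (4.09%). Without chromosome 17, a setting added after seeing the data, the rule found 1227 regions, 15.6% of the OL-only regions.

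SOX6 sat near the middle of the domain that OLs acetylated. The median distance of OPC summits from the centre of the prebound region was 138 bp in 129O1 (1202 summits) and 129 bp in EpiSC5 (709 summits), in regions of 1481.5 and 1482 bp median width. The central 20% of the region held 52.6% and 56.3% of summits, and the outer 20% held 2.58% and 1.27%. The position of the summit was not used by the rule, although the overlap was. In OPC-only regions, where SOX6 and H3K27ac come from the same cells, the medians were 105.5 bp in 129O1 and 97.5 bp in EpiSC5. Regions in all 4 lists are wider, and the medians there were 312 and 297 bp.

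**Figure D2:**
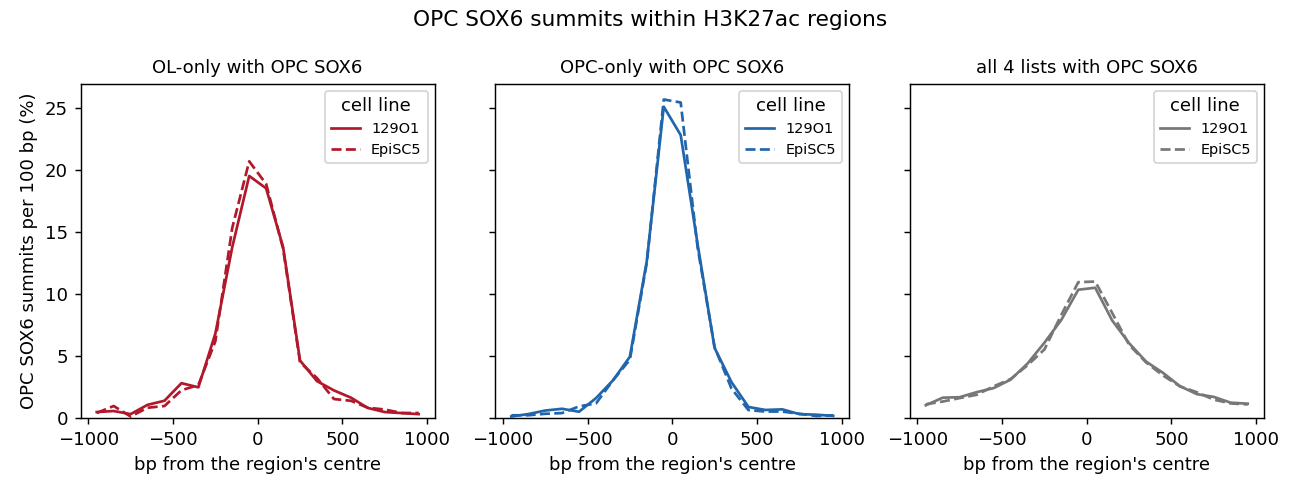
Percent of OPC SOX6 summits per 100 bp bin (vertical axis) by distance from the centre of the H3K27ac region (horizontal axis, bp), for prebound OL-only regions, OPC-only regions and regions in all 4 lists. Solid lines are 129O1 and broken lines EpiSC5. The prebound regions peak at the centre in both lines, with 65.7% and 68.7% of summits within 200 bp of it.

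Where OPC peaks of the 2 lines overlapped, their summits lay close together. The overlap itself limits this distance, as peaks in prebound regions had median widths of 279 bp in 129O1 and 274 bp in EpiSC5. Over 641 pairs of overlapping OPC peaks in prebound regions the median distance between the 129O1 and the EpiSC5 summit was 23 bp, and 90% of pairs lay within 67 bp.

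Regions chosen in 1 line were looked up in the other. Using 129O1 lists alone the rule chose 1615 regions, of which 610 (37.8%) also met it in EpiSC5, where 2.42% of all regions built from 129O1 lists did. Using EpiSC5 alone it chose 1255, of which 623 (49.6%) also met it in 129O1, against 3.43% of all. OL-only status by itself repeated in EpiSC5 for 72.0% of the regions chosen in 129O1 and 66.8% of the 129O1 OL-only regions without SOX6. In the reverse direction these shares were 56.6% and 59.6%. OL-only status thus repeated about as often with SOX6 as without, in opposite order in the 2 directions. Its parts differed in the same order in both. OPC H3K27ac was present in EpiSC5 at 13.3% of the regions chosen in 129O1, against 3.52% of those without SOX6. In the reverse direction it was present at 25.3%, against 7.16%. OL H3K27ac was present in EpiSC5 at 84.5%, against 69.6%, and in the reverse direction at 79.8%, against 65.95%.

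Prebound regions were slightly wider and higher in H3K27ac than other OL-only regions. Their median width was 1455.5 bp, against 1355 bp without OPC SOX6. The rule asks for an overlap with SOX6, which wide regions meet more often, so this order is in part fixed by it. H3K27ac fold was not compared at matched width. The median OL H3K27ac fold was 3.92 in 129O1 and 4.41 in EpiSC5, against 3.73 and 4.11. They stood farther from acetylation already present in OPCs, at a median of 16.9 kb from the nearest OPC H3K27ac peak, against 13.0 kb. Over 10 kb from any protein-coding gene body lay 360 prebound regions (27.6%), against 17.8% of other OL-only regions. Gene bodies held 63.5% of prebound and 74.6% of other OL-only regions. Another prebound region lay within 50 kb of 13.3% of them, and 12.4% of other OL-only regions had a prebound one that close.

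SOX6 in OLs, which the rule did not use, was found at 134 prebound regions (10.3%), against 157 of the OL-only regions without OPC SOX6 (2.27%) and 5.82% of every merged region. In OPC-only regions with OPC SOX6 it was 0.696%, and in regions of all 4 lists with OPC SOX6 it was 21.1%. Most prebound regions therefore had no OL SOX6 peak in the list of 3858 peaks, which is the shortest of the SOX6 lists and comes from 1 library. There is no replicate for this readout and no test was possible.

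OL SOX6 went with width within the prebound regions. The share was 3.06% under 1 kb, 6.92% from 1 to 2 kb, 17.1% from 2 to 4 kb and 40.0% at 4 kb and over. The other OL-only regions had 1.34%, 1.45%, 4.13% and 11.2% in those bands, lower in each. The 134 prebound regions with OL SOX6 had a median width of 2292.5 bp, against 1432.5 bp for the 1168 without. Their median OL H3K27ac fold was 5.67 in 129O1 and 6.60 in EpiSC5, against 3.82 and 4.34.

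**Figure D3:**
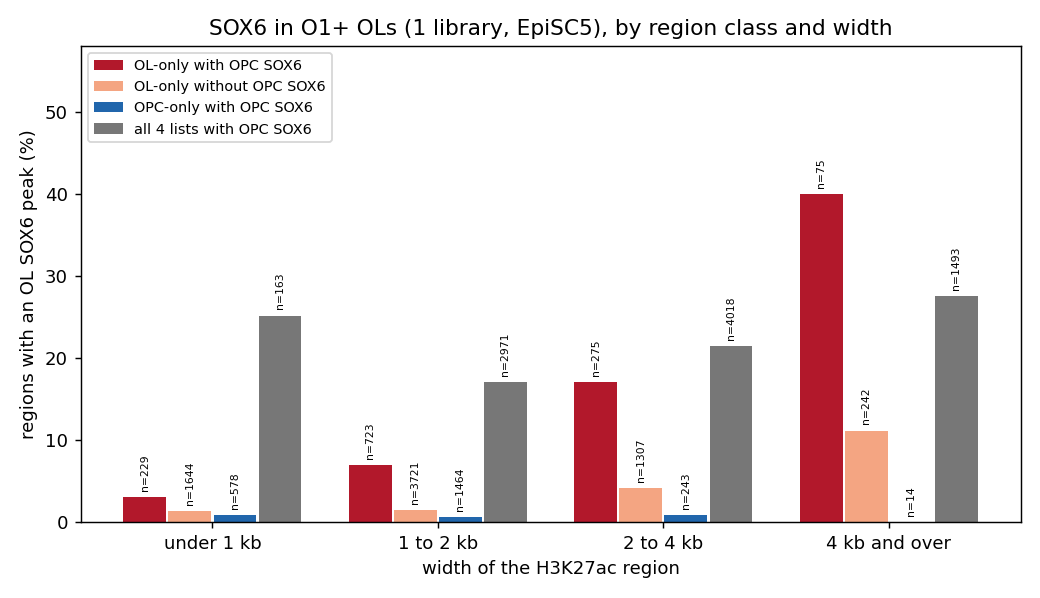
Percent of regions that overlap an OL SOX6 peak of EpiSC5 (vertical axis) in 4 bands of region width (horizontal axis), for prebound OL-only regions, other OL-only regions, OPC-only regions with OPC SOX6 and regions in all 4 lists with OPC SOX6. Bars are shares of the n regions above them, from 1 library. Prebound regions go from 3.06% to 40.0% across the bands and lie above other OL-only regions in each.

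Within EpiSC5, where OPC and OL lists come from the same line, 101 of 726 prebound regions with an EpiSC5 OPC peak (13.9%) also had an OL SOX6 peak. The share was 8.64% in the lower, 9.31% in the middle and 25.5% in the upper of 3 bands of OPC SOX6 fold, cut so that each holds the same number of EpiSC5 OPC peaks. In regions of all 4 lists the lower band was highest, with 30.0%, 15.5% and 16.6% in the same bands. Where an OPC and an OL peak overlapped, their summits were a median of 34 bp apart over 102 pairs. Of the 141 OL SOX6 peaks in prebound regions, 134 overlapped an OPC SOX6 peak (95.0%), against 55.1% of all OL SOX6 peaks. The rule places an OPC peak in each of these regions, so the first share is in part fixed by it.

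The prebound region with the largest OL SOX6 fold, 12.4, lay in Sema5a, a semaphorin guidance cue, at chr15:32676402-32679546. OPC SOX6 there was 9.98-fold in 129O1 and 8.39-fold in EpiSC5, and the 3 summits lay between 32678105 and 32678131. The next was at the gene 4931440J10Rik, with an OL fold of 12.2 and OPC folds of 20.1 in 129O1 and 16.9 in EpiSC5. Both were bound in each SOX6 list.

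The strongest 129O1 OPC binding in prebound regions was at chr16:71079693-71080942, 510 kb from the nearest protein-coding gene, Gbe1, and 745 kb from any OPC H3K27ac peak. SOX6 there was 37.5-fold in 129O1, the peak of rank 4 in that list, and 17.3-fold in EpiSC5. The OL SOX6 peak was 6.15-fold. Its OL H3K27ac was narrow and low, at 1250 bp and 3.68-fold in 129O1 and 853 bp and 4.30-fold in EpiSC5. Lgr4, an R-spondin receptor, had 19.7-fold and 19.6-fold OPC SOX6 in a region of 1503 bp and no OL SOX6 peak. Myo1e, a class I myosin, had 20.0-fold and 17.4-fold, with 6.35-fold in OLs. Grb10, an adaptor that dampens insulin-receptor signalling, had 16.9-fold and 16.8-fold and no OL peak. High OPC SOX6 thus occurred both with and without OL SOX6.

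The widest prebound regions lay in OL domains of many kilobases. Znrf1, an E3 ubiquitin ligase, held the widest, chr8:111607237-111627070, which reaches into Ldhd, and another of 9667 bp. OPC SOX6 was 4.74-fold and 4.17-fold in the first and 9.23-fold and 8.89-fold in the second, in 129O1 and EpiSC5. The strongest OL SOX6 peaks of these regions were 8.46-fold and 8.10-fold, with summits away from those of the strongest OPC peaks. The Znrf1 window held 9 OL SOX6 peaks, and only the strongest peak of each list per region is placed here. Whether weaker OL and OPC peaks coincide is not shown. In the first region the OL summit was at 111614815 and the OPC summits at 111611529 and 111611484. In the second the OL summit was at 111594533 and the OPC summits at 111592599 and 111592585. H3K27ac covered 40.4 kb of Znrf1 in OLs of 129O1 and 36.5 kb in OLs of EpiSC5, against 4.61 and 5.74 kb in OPCs. The 2 prebound regions account for 19834 and 9525 bp of the OL coverage in 129O1 and 18064 and 8658 bp in EpiSC5. The rule requires such stretches to be acetylated in OLs and not in OPCs, so in this and each gene below the order of OL and OPC coverage is in part fixed by it and is given as a description. Of the 10 widest, 5 had OPC SOX6 in 129O1 alone, among them the one at Mir219a-2, both at Tnr and those at Lhfpl2 and Dock4. An OL SOX6 peak was in 5 of the 10, the 2 at Znrf1, 1 at Tnr and those at Rnf220 and Mob3b.

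Among the genes, 923 of 20665 protein-coding genes (4.47%) held a prebound region within the gene body plus 10 kb each side, and 20.0% held another OL-only region. Most held 1 (826 genes), 77 held 2 and 20 held 3 or more. The share went up with gene length. It was 1.30% under 20 kb, 4.83% from 20 to 100 kb, 15.7% from 100 to 300 kb and 28.0% at 300 kb and over. The median length of holding genes was 87.8 kb, against 17.5 kb for all. H3K27ac was already present in both OPC lists within the same window of 791 of the 923 (85.7%), against 89.1% of 3641 genes that held other OL-only regions alone and 65.8% of all genes, and 88 genes had none in either OPC list. Most of the holding genes were thus acetylated elsewhere in OPCs.

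Of the genes with most prebound regions, Lsamp, a cell-surface adhesion protein of the IgLON family, held the highest number, 8 in 2197 kb. In OLs, H3K27ac peaks covered 49.6 kb of it in 129O1 and 66.3 kb in EpiSC5, against 33.4 and 26.2 kb in OPCs, and the lines keep this order below. One of the 8, chr16:41825319-41830467, was 5149 bp wide with OL H3K27ac of 9.95-fold and 10.4-fold, and carried SOX6 in all 3 lists. The other 7 had OL H3K27ac below 5-fold in both lines and no OL SOX6 peak. Elmo1, which activates Rac with DOCK proteins, held 5 regions, all with SOX6 in 129O1 and 1 also in EpiSC5. H3K27ac covered 53.2 and 48.7 kb of Elmo1 in OLs, against 20.6 and 16.6 kb in OPCs. Sema5a also held 5, and H3K27ac covered 61.4 and 64.0 kb of it in OLs, against 17.5 and 12.8 kb in OPCs. Arhgef28, a guanine nucleotide exchange factor, Agbl4, a tubulin deglutamylase, Opcml, another IgLON protein, and Erbb4, a neuregulin receptor, held 4 each. Erbb4 had 21.3 and 17.7 kb of H3K27ac in OLs and 20.7 and 16.6 kb in OPCs, so its prebound regions came with nearly level totals. Ncald, a neuronal calcium sensor, held 3 with less H3K27ac in OLs (25.1 and 17.6 kb) than in OPCs (41.7 and 30.9 kb).

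Genes of newly formed OLs held prebound regions in 6 of 24 cases (25%), against 4.47% of all genes. Other OL-only regions were in 21 of the 24 (87.5%), against 20.0% of all genes, so a raised share was not particular to prebound regions. The list held 10 prebound and 89 other OL-only regions. All 6 genes with a prebound region were among the 11 of the list at 100 kb or longer. At that length 18.5% of all genes held one. Enpp6, an enzyme of choline metabolism typical of newly formed OLs, held 2. H3K27ac covered 11.99 and 15.4 kb of Enpp6 in OLs, against 0 and 0.411 kb in OPCs. Its region chr8:46986329-46990622 had OL H3K27ac of 10.3-fold and 10.1-fold, OPC SOX6 of 6.45-fold and 4.42-fold and OL SOX6 of 5.59-fold. The second, chr8:47002791-47007352, had OPC SOX6 of 21.9-fold and 15.6-fold and OL SOX6 of 4.55-fold. SOX6 was thus listed at Enpp6 in OPCs of both lines, where H3K27ac was nearly absent from the whole gene.

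Itpr2, a calcium release channel of the endoplasmic reticulum, held 2 regions. The one at chr6:146110849-146116073 had 2 OPC SOX6 peaks in each line and an OL SOX6 peak of 5.19-fold. Epb41l2, which links membrane proteins to spectrin, held 2 regions, one bound in 129O1 alone and the other in EpiSC5 alone. H3K27ac covered 58.7 and 46.6 kb of it in OLs, against 4.99 and 6.24 kb in OPCs. Nfasc, an adhesion molecule at nodes and paranodes, held 1 region, 7.91 kb outside the gene body, with SOX6 in 129O1 alone at 6.37-fold. Tns3, a focal adhesion protein, held 1 of 3372 bp, also bound in 129O1 alone. Frmd4a, a FERM-domain scaffold, held 2.

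OL SOX6 was dense at several of these genes but outside the prebound regions. Frmd4a held 151 OL SOX6 peaks and Nfasc 64, and none of these overlapped their prebound regions. Qk, an RNA-binding protein needed for myelin transcripts, held 92, Bcas1, a marker of early myelinating cells, held 55 and Mbp, the major myelin basic protein, held 23. These 3 genes held 0 prebound regions, as did Fyn, a Src-family kinase of OL differentiation, and Tcf7l2, a transcription factor of newly formed OLs. All 5 held other OL-only regions, between 2 and 4 each.

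Myelin genes held prebound regions in 6 of 30 cases (20.0%), against 4.47% of all genes. Other OL-only regions were in 15 of the 30 (50.0%), against 20.0% of all genes. The 6 genes with a prebound region were each under 100 kb, while 0 of the 2 longer genes of the list held one. Of all genes, 1.30% under 20 kb and 4.83% from 20 to 100 kb held one. Mobp held a region of 9596 bp, chr9:120148968-120158563, that covers the promoter printed above. OL H3K27ac there was 9.24-fold over 4590 bp in 129O1 and 7.21-fold over 9596 bp in EpiSC5. H3K27ac covered 6.94 and 11.0 kb of the Mobp window in OLs, against 0.593 and 0 kb in OPCs, and most of the OL coverage is the prebound region itself. Hapln2 had 2.19 and 2.70 kb in OLs, against 0 and 0 kb in OPCs. Myrf, the membrane-anchored transcription factor that switches on myelin genes, held 1 region 0.919 kb from its body, with OPC SOX6 in both lines at 5.93-fold and 4.26-fold. Tspan2, a tetraspanin of myelin, held 2, one of which lies over its neighbour Tshb. Cldn11, the claudin of myelin tight junctions, and Plekhh1, a pleckstrin-homology protein, held 1 each, bound in 129O1 alone. These 6 genes held 7 prebound regions, of which 0 carried an OL SOX6 peak, beside 10.3% of all prebound regions. So small a number cannot tell these shares apart.

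**Figure D4:**
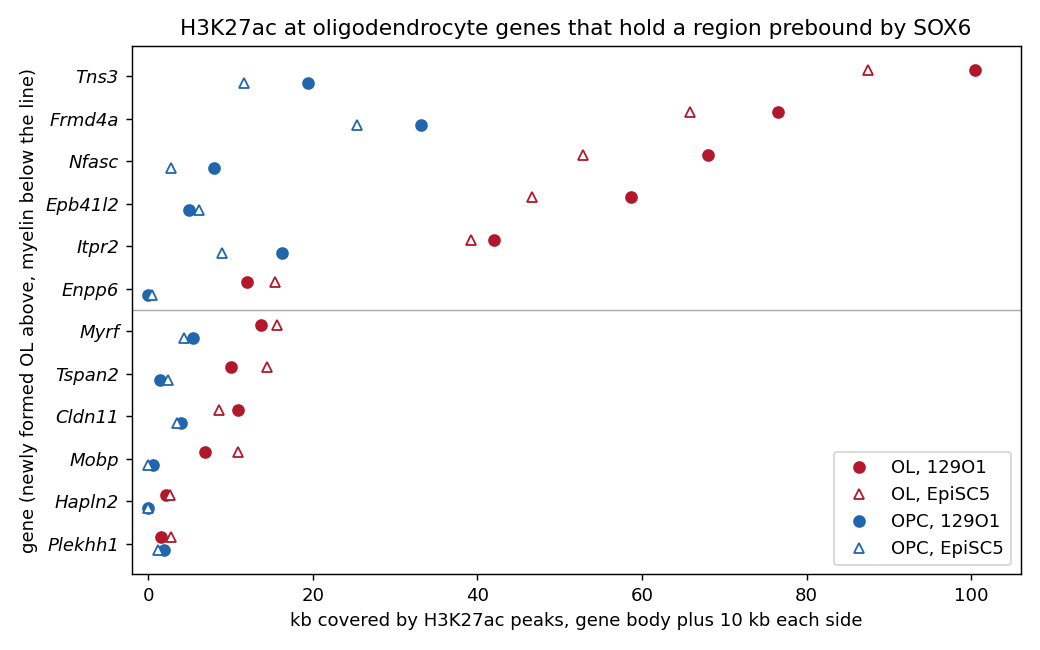
Kilobases covered by H3K27ac peaks (horizontal axis) in the gene body plus 10 kb each side of the 12 newly formed OL and myelin genes that hold a prebound region (vertical axis), in OLs and OPCs of each line. Each marker is 1 list. The OL totals include the prebound regions, so the order of OL and OPC markers is in part fixed by the rule. At Plekhh1 the markers overlap, where OLs have 1.59 and 2.81 kb and OPCs 1.93 and 1.22 kb.

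Transcription factors of the lineage held prebound regions in 6 of 20 cases (30.0%) and other OL-only regions in 10 (50.0%). The shares of all genes were 4.47% and 20.0%. Of the 6 genes with a prebound region, 4 were among the 6 of the list at 100 kb or longer. At that length 18.5% of all genes held one. Sox6 and Sox5 themselves each held 1, bound in both lines. The Sox6 region, chr7:115513382-115514712, had OPC SOX6 of 6.10-fold and 3.92-fold and lay 0.973 kb from an OPC H3K27ac peak. Sox6 was widely acetylated in both states, with 78.9 and 61.2 kb in OLs and 76.9 and 57.2 kb in OPCs. The Sox5 region had OPC SOX6 of 11.0-fold and 8.44-fold, in a gene with 10.5 and 16.6 kb of H3K27ac in OLs and 19.2 and 20.5 kb in OPCs. St18 and Zfp536, zinc-finger factors, held 2 each. The St18 regions lay 83.1 and 102 kb from the nearest OPC H3K27ac peak. Olig1, a basic helix-loop-helix factor of the lineage, held 1 region of 583 bp, 5.64 kb from its body.

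Genes of the cytoskeleton and process outgrowth held prebound regions in 8 of 29 cases (27.6%), against 4.47% of all genes. Other OL-only regions were in 23 of the 29 (79.3%), against 20.0% of all genes. Of the 8 genes with a prebound region, 7 were among the 21 of the list at 100 kb or longer. Besides Elmo1, Epb41l2, Frmd4a and Tns3 these were Map4, Wasf2, Cobl and Limch1. Of all genes at 100 kb or longer, 18.5% held a prebound region. Phosphoinositide and Akt-mTOR signalling genes held prebound regions in 3 of 20 (15.0%), against 4.47% of all genes, and other OL-only regions in 12 (60.0%). The 3 with prebound regions were Plcg2, Plcb1 and Rptor, all among the 9 of the list at 100 kb or longer. Cell cycle genes held them in 1 of 16 cases (E2f1, 6.25%) and MAPK feedback genes in 0 of 18, with a median length of 9.07 kb, beside 4.47% of all genes. OPC genes held them in 4 of 30 (13.3%, of which 3 were among the 12 at 100 kb or longer), namely Tnr, Lhfpl3, Lrrtm3 and Olig1. In the same list 16 genes (53.3%) held other OL-only regions. Tnr, an extracellular matrix glycoprotein, held 2 of the 10 widest, of 10365 and 8919 bp, and had 153 and 114 kb of H3K27ac in OLs, against 17.8 and 11.2 kb in OPCs.

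Lists of other cell types gave 0 of 14 astrocyte, 2 of 15 neuron (13.3%), 1 of 12 microglia and 1 of 11 Schwann cell genes. Housekeeping genes gave 0 of 12, beside 4.47% of all genes. Lists this short cannot tell such shares apart. Other OL-only regions were in 42.9% of the astrocyte and 33.3% of the neuron genes, against 20.0% of all genes. For microglia, Schwann cell and housekeeping genes these shares were 8.33%, 9.09% and 16.7%. Gene length differed between the lists, with medians from 4.74 kb for housekeeping to 154 kb for cytoskeleton genes, and its part in these shares was not tested. As a check of the cell labels, H3K27ac covered 96.6 and 132 kb at 8 OL marker genes in OLs, against 24.5 and 20.4 kb in OPCs. At 5 OPC markers it covered 42.9 and 37.4 kb in OLs, against 95.8 and 74.1 kb in OPCs. At 4 astrocyte markers it covered 30.9 and 11.5 kb in OLs, against 14.9 and 8.32 kb in OPCs, and no marker was at 0 in all lists. The 4 neuron markers had between 10.2 and 16.9 kb in the 4 lists. The 4 microglia markers had between 4.09 and 6.98 kb, with Cx3cr1 at 0, and the 4 pluripotency markers between 0 and 4.20 kb, with Dppa4 at 0. The part of other cells in the prebound regions was not tested.

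**Figure D5:**
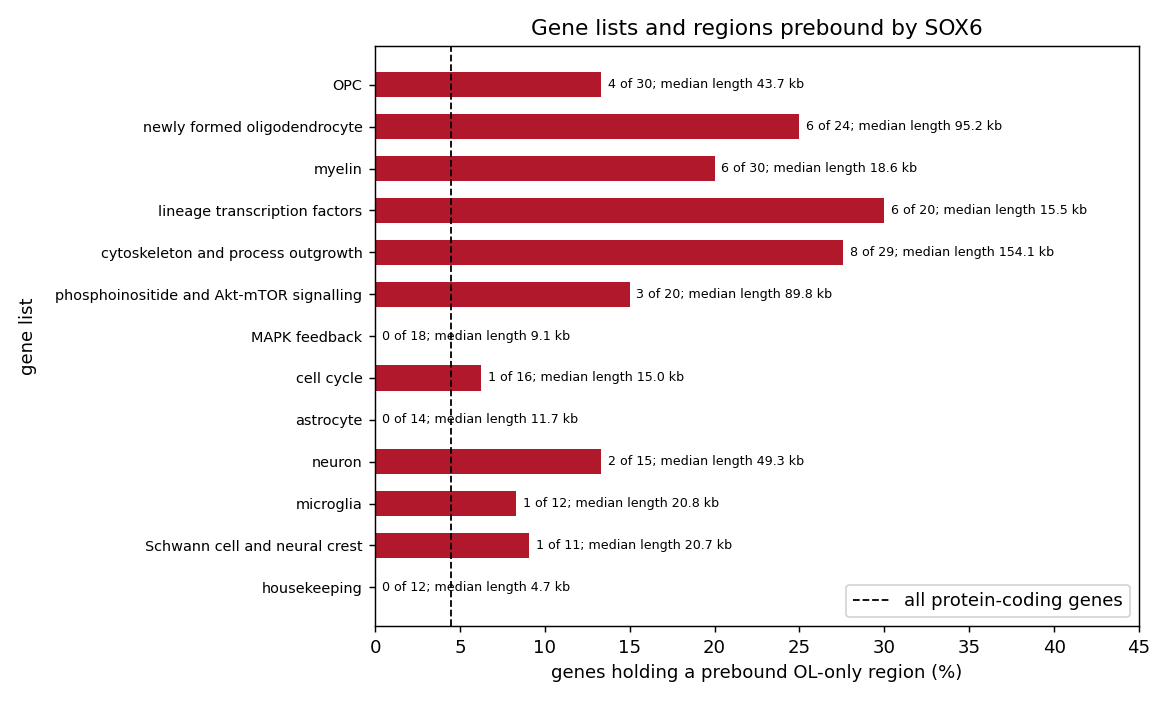
Percent of the genes of each list shown (vertical axis) on chromosomes 1 to 19 that hold a prebound region within the body plus 10 kb (horizontal axis), with counts and median gene length beside each bar. The broken line marks the 4.47% of all protein-coding genes. Lineage transcription factors (30.0%), cytoskeleton (27.6%), newly formed OL (25%) and myelin genes (20.0%) lie highest. These bars are not independent, since lists share genes. Epb41l2, Frmd4a and Tns3 count as newly formed OL and as cytoskeleton genes. Myrf counts as a myelin gene and as a transcription factor, and Olig1 as an OPC gene and as a transcription factor. Other OL-only regions, not drawn, were in 50.0%, 79.3%, 87.5% and 50.0% of these lists in the same order, against 20.0% of all genes.

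At the edges of the rule, the smallest overlap of a prebound region with SOX6 was 1 bp, and 29 regions were overlapped by under 100 bp. Just outside it, 10 OL-only regions had a SOX6 peak within 100 bp without overlap, the nearest at 4 bp. On the acetylation side, 14 prebound regions lay within 1 kb of an OPC H3K27ac peak, the closest at 71 bp.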

How the data were processed

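Peak lists of 7 of the 9 samples were used, and the 2 inputs, titled as embryonic stem cells but otherwise described as OPCs, were not analysed here. The submitters' processing notes name Trim Galore 0.3.1, Bowtie2 2.3.2, Picard, deepTools, bedtools and build mm10. Neither the peak caller nor its control is given in the sources used here. ChIP used 9 µg of H3K27ac or 15 µg of SOX6 antibody, per the labels' protocols. The protocols state a minimum of 20000000 reads for each sample, and the lists do not show the depth reached. Each deposited list belongs to 1 library and gives a score, a fold enrichment ratio and −log10 p and −log10 q per peak. These are the authors' own values and served only for describing, ranking and filtering peaks of 1 list. SOX6 lists also give summits.

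Regions, overlaps and gene windows were computed in Python 3.11.15 with numpy 2.4.6 and pandas 2.3.3, checked on simulated lists with planted regions. Gene and promoter positions came from RefSeq tables of GRCm38.p6, and promoters of chromosome 18 were not analysed here. Coordinates are 1-based. Genes are named by a rule: the 20 with most regions, up to 10 holding genes each of the newly formed OL, myelin and OPC lists, genes at the 10 widest regions and the 10 with highest SOX6, and 10 given always (Sox6, Sox5, Bcas1, Qk, Frmd4a, Nfasc, Mbp, Fyn, Tns3 and Tcf7l2). Some of these, and 1 gene list, are not reported here, and others named came from the gene lists or were picked with their values known. The regions and lists were chosen with earlier results of these data known. Alternatives covered overlap, peak strength, list length, distance to OPC H3K27ac, joining, gene window and each line left out.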

Additional observations from a re-analysis of the deposited data

Results flagged for a closer look

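Chromosomes X and Y stood outside the main measurement. There, 19 regions met the rule, all on X, which was 22.6% of 84 OL-only regions, and 1 carried an OL SOX6 peak. They lay at or near genes that include Gpc3, a glypican, and Pak3, a kinase that acts on the cytoskeleton.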

How the results depend on the processing

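Of 97 values recomputed under other settings, 68 stayed close to those reported, within 1.5 times for counts and within 1 SD of the per-line values for shares and widths, and 29 moved. Taking equal numbers of peaks by score, 3858 per SOX6 list, moved most. It left 157 prebound regions, 2.497% of OL-only regions, with a median width of 1593 bp, at 126 genes and 1 newly formed OL gene. OL SOX6 was then at 24.84% of them and 3.833% of OL-only regions without OPC SOX6, and 34.98% of the regions chosen in EpiSC5 met the rule in 129O1. With the higher-scoring 50% of each list, 23.54% of OL-only regions were prebound, their median width was 2172.5 bp, OL SOX6 was at 8.386% of them and 2.484% of the others, and 46.3% of those chosen in 129O1 met the rule in EpiSC5. With −log10 q of at least 5 the prebound share was 20.16%, the median width 1616 bp and OL SOX6 at unbound OL-only regions 2.434%. Requiring SOX6 in both OPC lists left 636 regions (7.741%) at 465 genes, 3 of them newly formed OL genes, and 15.25% had OL SOX6. With no OPC H3K27ac within 5 kb, OL SOX6 at unbound OL-only regions was 2.415%. A gene window of 50 kb each side gave 1812 holding genes, 10 of them newly formed OL genes. Without 129O1 the prebound share was 8.725%, OL SOX6 at unbound regions 1.858% and the median width 1216 bp, and without EpiSC5 they were 12.96%, 1.752% and 1157 bp. OL SOX6 was more frequent at prebound than at other OL-only regions under each of these settings.

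No paired analysis was possible because the results come from no test, and values within each line are given in their place. The planned SOX motif windows around summits were not run, since no genome sequence was used here. The reads behind each list limit every absence and are not known: a region without a listed peak is one without a call at that list's threshold. OL SOX6 rests on 1 library.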
